A study of Mus musculus with 16 samples.

Results

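The mitochondrial carriers of the SLC25 family were read from 16 Affymetrix Mouse430A_2 arrays of mouse liver and quadriceps muscle, with and without the transcription factor Klf15. Members were chosen by name: every gene on a probe set annotated with 1 symbol that begins with Slc25a, except Slc25a13, Slc25a15 and Slc25a20, together with the uncoupling proteins Ucp1, Ucp2 and Ucp3. The rule reads names and annotation alone. It gave 32 genes on 63 probe sets, of 12393 named genes on the array, and each gene was read from its brightest probe set. Ucp2, Slc25a1, Slc25a12, Slc25a16 and other carriers without such a probe set were not analysed here.

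The groups were Klf15-null (knockout, KO) liver, wild-type (WT) liver, knockout quadriceps and wild-type quadriceps, with 4 arrays in each. All mice were females aged 4 to 5 months that had been fasted for 18 h, so the controls were fasted too and no fed group was analysed here. The strain, the extent of the deletion and whether each sample came from a separate animal are not given in the labels used here, so p-values reflect the spread among these particular samples alone, which may be in part technical. Arrays are named by tissue, genotype and sample number (knockout 5 to 8, wild type 1 to 4).

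SLC25 proteins sit in the inner mitochondrial membrane and exchange a substrate of the cytosol for one of the matrix. They carry ADP and ATP, phosphate, dicarboxylates, amino acids, coenzymes, nucleotides and iron, and the uncoupling proteins, which belong to the same family, let protons leak back. A few members work elsewhere, such as Slc25a17 in peroxisomes and Slc25a46 in the outer mitochondrial membrane. In a fasted animal the liver uses these carriers in glucose and urea synthesis, and muscle uses them in oxidative ATP supply. Klf15 is a zinc finger factor of the Kruppel-like family, known for its part in amino acid and glucose metabolism during fasting, and factors of this family bind CACCC-type sequences.

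The upstream sequences of Slc25a25, Slc25a42 and Slc25a36 are shown because the first 2 carried the largest quadriceps falls and because Slc25a25 and Slc25a36 were the members with a cyclic AMP response element. The windows are the 250 bases before the annotated start, from RefSeq on GRCm38.p6, written 5′ to 3′ on the gene's own strand, which is the minus strand for each. Capitals mark the cyclic AMP response element (TGACGTCA, the same on both strands) or the CACCC box (CACCC or GGGTG), and no marked stretches overlap.
Slc25a25 start 3, chr2:32424067-32424316: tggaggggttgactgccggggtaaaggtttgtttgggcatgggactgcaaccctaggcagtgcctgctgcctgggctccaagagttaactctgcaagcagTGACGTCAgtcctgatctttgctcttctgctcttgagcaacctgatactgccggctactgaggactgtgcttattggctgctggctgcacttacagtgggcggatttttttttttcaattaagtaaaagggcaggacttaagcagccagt
Slc25a36, chr9:97111042-97111291: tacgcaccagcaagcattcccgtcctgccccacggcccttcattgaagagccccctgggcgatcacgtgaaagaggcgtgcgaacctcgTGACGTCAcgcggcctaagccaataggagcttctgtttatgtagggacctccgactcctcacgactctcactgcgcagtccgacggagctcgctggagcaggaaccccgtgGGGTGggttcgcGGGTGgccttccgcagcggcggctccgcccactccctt
Slc25a42, chr8:70212282-70212531: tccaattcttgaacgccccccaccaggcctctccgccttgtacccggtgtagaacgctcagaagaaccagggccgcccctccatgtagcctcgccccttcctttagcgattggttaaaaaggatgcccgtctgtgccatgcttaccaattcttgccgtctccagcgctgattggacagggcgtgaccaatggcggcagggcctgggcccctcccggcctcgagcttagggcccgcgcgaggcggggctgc

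Of the 32 members, 25 had such a window (33 windows, since some genes have several starts). The cyclic AMP response element, which CREB-family factors bind, began 150 bases before start 3 of Slc25a25 and 161 bases before that of Slc25a36, and 1.55% of all 32851 windows held it. The windows of the other 2 Slc25a25 starts held neither motif. A CACCC box, on either strand, lay in 20 of the 33 member windows, against 52.01% of all windows, and the Slc25a42 window held none. The TATA box (TATAAA or TTTATA) was in 0 of 33 member windows, against 12.37% of all. These are matches of letters in one window, not measured binding.

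Signals are the deposited values, 1 per probe set, on a linear scale. Liver arrays had similar medians (highest over lowest 1.18) and were used as deposited. Quadriceps arrays differed more (3.79) and were multiplied to a common median by factors of 0.678 to 2.57. Knockout quadriceps 8 stood apart before scaling, with a median of 15.6 against 32.5 to 59.2 on the other quadriceps arrays, 21.3% of its signal in its 100 brightest probe sets, and a scan 3 days after the others, so quadriceps results are also given without it. In either tissue, fluidics station 1 processed the knockout arrays and station 2 the wild-type ones, and genotype therefore cannot be told apart from station. The tissues were hybridised in separate runs, so tissue cannot be told apart from run. The labelled tissues carried their markers: 5 measured hepatocyte markers summed to 36485 to 43098 in liver and 29.2 to 80.7 in quadriceps, and 6 myofibre markers to 62.2 to 119 in liver and 46893 to 164377 in quadriceps. Klf15 averaged 165 ± 23.6 in knockout liver and 1093 ± 195 in wild-type liver, and 57.3 ± 33.5 in knockout quadriceps and 656 ± 95 in wild-type quadriceps (SD, n = 4 each), and the sources used here do not place its probes relative to the deletion.

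Each difference is the knockout mean less the wild-type mean of log2(signal + 16), given with its standard error (SE) from limma fits over all named genes above a level filter. The filter is the 40th percentile of probe set means, which was a signal of 25.1 for liver arrays and 24.1 for quadriceps arrays. P-values were adjusted over all genes of a comparison, and 0.05 was the threshold. In liver 24 members passed the filter, and Slc25a2, Slc25a14, Slc25a24, Slc25a35, Slc25a48, Slc25a53, Ucp1 and Ucp3 did not. In quadriceps 27 passed, and Slc25a2, Slc25a14, Slc25a24, Slc25a48 and Ucp1 did not. Ucp1, the uncoupling protein of brown fat, lay near 0 throughout, at 1.95 ± 0.404 in knockout liver, 1.25 ± 0.465 in wild-type liver, 4.34 ± 2.95 in knockout quadriceps and 3.21 ± 1.62 in wild-type quadriceps (SD, n = 4 each).

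In knockout quadriceps, 3 carriers fell and 0 rose: Slc25a42, which exchanges coenzyme A and adenine nucleotides, Slc25a25, an ATP-magnesium/phosphate carrier gated by calcium, and Slc25a26, which brings S-adenosylmethionine into mitochondria. These were 3 of 27 tested members, against 0.976% of all genes tested that were lower in this comparison and 0.0501% that were higher. The members' median difference was -0.27, against -0.18 over all 7988 genes tested. Quantile normalization brought the all-gene median to -0.06, no scaling to -0.48 and trimmed-mean scaling to -0.05, so each quadriceps difference is read against these shifts. In these whole-tissue samples, fewer cells of a type and less RNA per cell cannot be told apart.

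Slc25a42 signals were 83.1, 112, 68.8 and 111 in knockout quadriceps 5 to 8, against 244, 277, 358 and 228 in wild-type quadriceps 1 to 4. Every knockout array lay below every wild-type array, with a wide gap, and knockout 8 was not apart from the other knockout arrays. The group means were 93.7 ± 21.3 in knockout and 277 ± 57.9 in wild type (SD, n = 4 each), a difference of -1.42 (SE 0.19, adjusted p = 0.000562, limma). Without knockout 8 it was -1.50 (adjusted p = 0.000335, limma), and Slc25a42 was past the threshold in 22 of 22 other settings. Among these 22, 1 median for all arrays repeats the main scaling, and the scan day as a block nearly repeats leaving out knockout 8. The same holds for the other quadriceps counts out of 22. In liver the signals of this coenzyme A carrier were 446, 324, 288 and 366 in knockout, against 557, 459, 552 and 377 in wild type. The liver groups overlapped, and the difference of -0.44 (SE 0.15, adjusted p = 0.0958, limma) did not pass, though it did without wild-type liver 4 (adjusted p = 0.0406, limma) and without knockout liver 5 (adjusted p = 0.0438, limma).

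Slc25a25 signals were 145, 91.5, 43.2 and 224 in knockout quadriceps 5 to 8, against 280, 393, 348 and 301 in wild-type quadriceps. The groups did not overlap, and knockout 8 was the highest of the knockout arrays. The means were 126 ± 77.6 in knockout and 331 ± 50.4 in wild type (SD, n = 4 each), a difference of -1.46 (SE 0.31, adjusted p = 0.0279, limma). Without knockout 8 it was -1.78 (SE 0.26, adjusted p = 0.000988, limma). The call was lost without wild-type quadriceps 2 (adjusted p = 0.104, limma), wild-type 3 (0.0937), wild-type 4 (0.0756) or knockout 6 (0.0715), with differences of -1.37 to -1.50, and with quantile normalization (-1.26, adjusted p = 0.125, limma), trimmed-mean scaling (0.0939), no filter (0.0985) or no variance trend (0.0839) on the 8 arrays. Slc25a25 was past the threshold in 14 of 22 other settings.

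In liver the same carrier did not pass the threshold. Slc25a25 signals were 648, 276, 455 and 685 in knockout liver 5 to 8, against 523, 245, 446 and 138 in wild-type liver 1 to 4. The liver groups overlapped and each spread widely, with the highest values in knockout 5 and 8 and the lowest in wild type 4. The means were 516 ± 189 in knockout and 338 ± 177 in wild type (SD, n = 4 each), a difference of 0.67 (SE 0.36, 95% interval -0.11 to 1.45) that did not pass (adjusted p = 0.291, limma). Slc25a25 has 1 probe set with a single symbol, so no second probe set could be set beside it.

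Slc25a26 signals were 76.8, 88.1, 61.2 and 107 in knockout quadriceps, against 166, 123, 228 and 149 in wild-type quadriceps. All 4 knockout arrays were below all 4 wild-type arrays, with knockout 8 nearest to them. The means were 83.1 ± 19.1 in knockout and 166 ± 44.4 in wild type (SD, n = 4 each), a difference of -0.87 (SE 0.20, adjusted p = 0.0455, limma). This call was close to the threshold: it passed without knockout 8 (-0.99, adjusted p = 0.00575, limma) and was lost when any other quadriceps array was left out, with an adjusted p between 0.058 (without wild type 2) and 0.213 (without wild type 3). It was also lost with quantile normalization (adjusted p = 0.137, limma), trimmed-mean scaling (0.129; without knockout 8, 0.0579), no scaling (0.0634), a pseudocount of 1 (0.054), no filter (0.144), no variance trend (0.117) and averaged probe sets (0.138), and passed in 7 of 22 other settings. A second Slc25a26 probe set differed by -0.21 in quadriceps. In liver the brightest probe set read 66.9, 60.5, 85.1 and 76.5 in knockout, against 56.3, 73.3, 57.8 and 57.1 in wild type, groups that overlapped (0.19, SE 0.14, adjusted p = 0.448, limma).

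**Figure D1:**
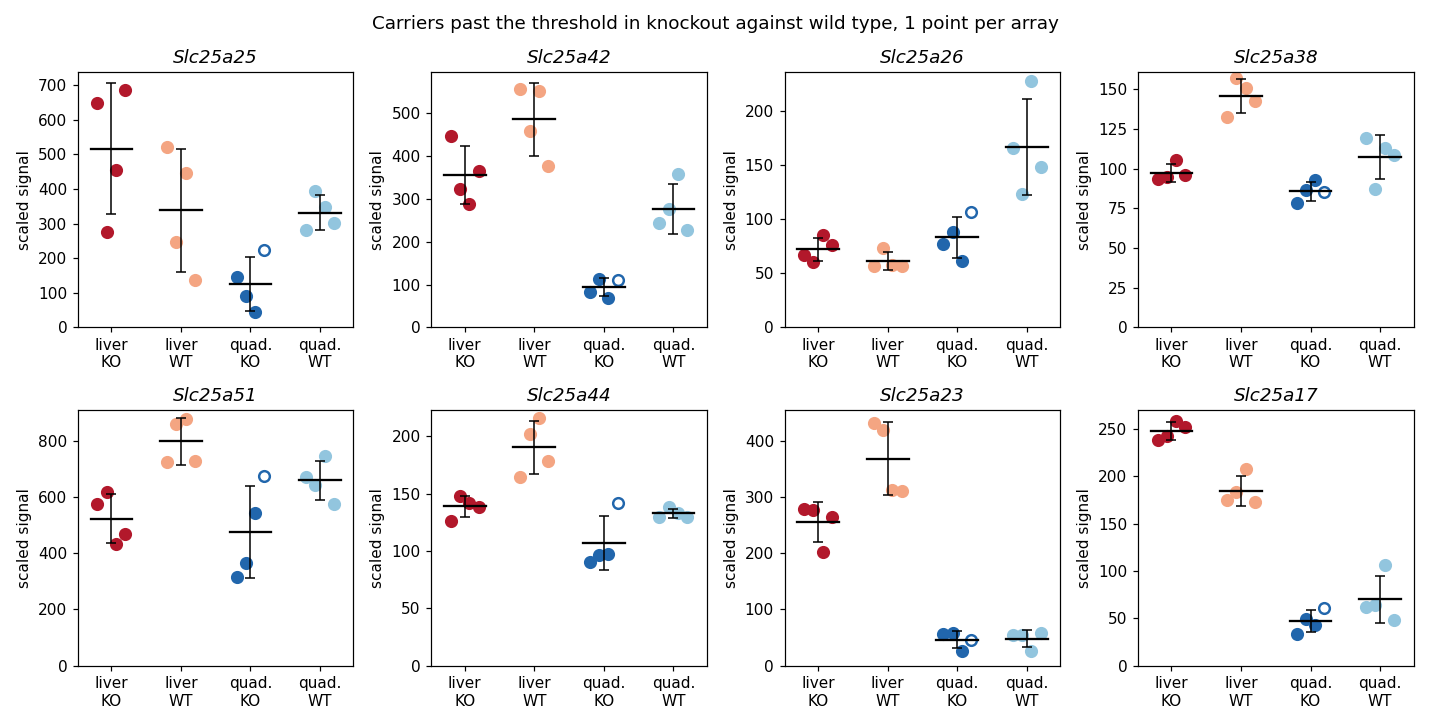
Signal per array (linear axes from 0) of the 8 carriers past the threshold in liver or quadriceps, with knockout (KO) left of wild type (WT) in each tissue, bars at the mean and SD of 4 arrays, and knockout quadriceps 8 as an open circle. Slc25a25 and Slc25a42 were below wild type on every knockout quadriceps array, while the liver groups of Slc25a25, with means of 516 in knockout and 338 in wild type, overlapped.

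The carriers nearest to the threshold in quadriceps were Slc25a29, which carries the basic amino acids, Slc25a47, a carrier expressed mainly in liver, and Ucp3, the uncoupling protein of skeletal muscle. Slc25a29 read 67.1, 45.8, 57.7 and 83.9 in knockout, against 90.4, 107, 129 and 102 in wild type, groups that did not overlap (-0.64, SE 0.19, adjusted p = 0.126, limma). Its other probe sets, some of them below the filter, gave -1.11 to -0.49. With all averaged, Slc25a29 passed in quadriceps (-0.79, adjusted p = 0.0478, limma). Slc25a47 read 27.9, 25.4, 6.03 and 25.5 in knockout, against 45.8, 38.5, 63.8 and 44.6 in wild type (-0.82, SE 0.25, adjusted p = 0.145, limma). These Slc25a47 groups did not overlap either, but the knockout mean of 21.2 lay below the filter signal.

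Ucp3 read 507, 516, 732 and 1234 in knockout quadriceps 5 to 8, against 1256, 1253, 1656 and 1142 in wild type. Knockout 5, 6 and 7 were below all wild-type arrays, and knockout 8 lay among the wild-type arrays. The means were 747 ± 341 in knockout and 1327 ± 226 in wild type (SD, n = 4 each; -0.90, SE 0.28, adjusted p = 0.153, limma). Without knockout 8 the scaled means were 621 ± 135 (SD, n = 3) in knockout and 1408 ± 240 (SD, n = 4) in wild type, a difference of -1.17 (adjusted p = 0.0017, limma), and Ucp3 also passed with quantile normalization of all 8 arrays (-0.73, adjusted p = 0.0361, limma). A second, dimmer Ucp3 probe set gave 0.08 over all arrays, so the probe sets of this gene disagree.

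Leaving out knockout quadriceps 8 raised the number of carriers that fell to 10 of 27, against 21.1% of all genes that were then lower, and 0 rose, against 1.48%. They were Slc25a42, Slc25a25, Ucp3, Slc25a26, Slc25a46, Slc25a29, Slc25a51, Slc25a36, Slc25a47 and Slc25a44. For Slc25a47 the knockout mean was below the filter signal here too, at 21.0. The members' median was then -0.43, against -0.28 over all genes. With quantile normalization of the same 7 arrays, 6 fell, against 5.25% of all genes that were lower, and 0 rose, against 2.94%: Slc25a42, Ucp3, Slc25a25, Slc25a26, Slc25a46 and Slc25a29. The split of all calls moved with the scaling, from 118 higher and 1685 lower with median scaling to 235 higher and 419 lower with quantile normalization and 248 higher and 392 lower with trimmed-mean scaling of these 7 arrays. Slc25a42, Slc25a25, Ucp3 and Slc25a46 were past the threshold in each of the 3 scalings without knockout 8.

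**Figure D2:**
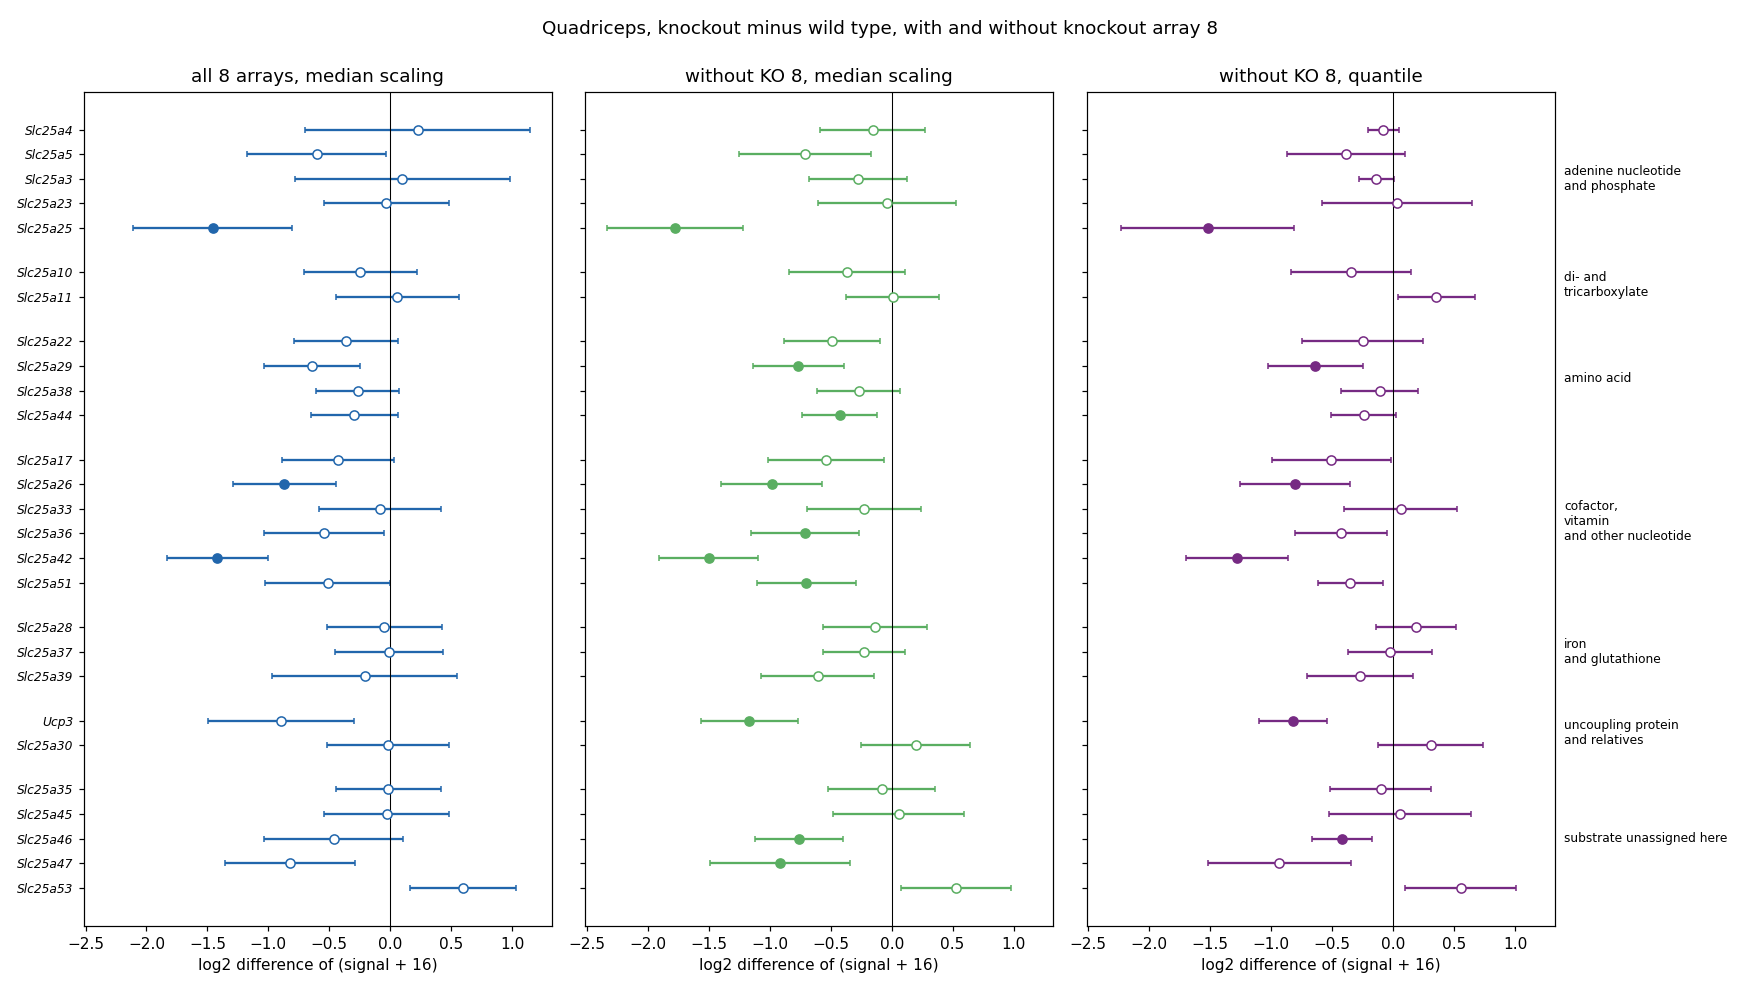
Quadriceps difference, knockout minus wild type, in log2(signal + 16) for the 27 tested carriers by substrate class, with 95% intervals and filled points past the threshold, for all 8 arrays with median scaling (left), without knockout 8 with median scaling (centre) and without knockout 8 with quantile normalization (right). Filled points numbered 3, 10 and 6, and Slc25a42, Slc25a25 and Slc25a26 were filled in each panel.

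By substrate, the 6 coenzyme, vitamin and nucleotide carriers tested in quadriceps had a median of -0.53, against -0.18 over all genes, with Slc25a42 and Slc25a26 past the threshold. The others in this class were Slc25a36 and Slc25a33, pyrimidine nucleotide carriers, Slc25a51, which carries NAD into mitochondria, and Slc25a17. Among them Slc25a51 read 317, 365, 543 and 674 in knockout quadriceps, against 672, 643, 745 and 573 in wild type, so that knockout 8 lay among the wild-type arrays (-0.51, SE 0.24, adjusted p = 0.297, limma). The class members that came without a call ranged from -0.55 for Slc25a36 to -0.09 for Slc25a33. The sign of Slc25a33 turned with quantile normalization (0.11) and that of Slc25a36 with averaged probe sets (0.02).

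Of the 5 adenine nucleotide and phosphate carriers tested in quadriceps, Slc25a25 was the 1 that passed. The ADP/ATP exchangers Slc25a4, the heart and muscle form, and Slc25a5, the form of most other tissues, differed by 0.23 (SE 0.44) and -0.60 (SE 0.27, adjusted p = 0.281, limma), and neither passed. Slc25a4 read 6594, 10257, 9335 and 24768 in knockout, against 7483, 9445, 10411 and 11369 in wild type, and the phosphate carrier Slc25a3 read 5340, 7852, 7370 and 19191 in knockout, against 6810, 8084, 9173 and 8945 in wild type. For both, knockout 8 was the highest array after scaling and the remaining arrays overlapped. Without it the differences were -0.16 and -0.28, and neither passed. Slc25a23, another calcium-gated ATP-magnesium/phosphate carrier and a close relative of Slc25a25, read 56.4, 57.7, 25.4 and 45.8 in knockout quadriceps, against 53.8, 54.5, 25.1 and 57.5 in wild type (-0.03, SE 0.24, 95% interval -0.54 to 0.48).

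The 2 dicarboxylate carriers tested, Slc25a10, which carries malate and succinate, and Slc25a11, the oxoglutarate/malate carrier, differed by -0.25 (SE 0.22) and 0.06 (SE 0.24). The mitochondrial iron importers Slc25a28 and Slc25a37 and the glutathione carrier Slc25a39 lay between -0.21 and -0.01. Dimmer Slc25a39 probe sets, also above the filter, gave -0.55 and -0.63. The 4 amino acid carriers ranged from -0.64 for Slc25a29 to -0.27 for Slc25a38, and 0 passed. Slc25a53, whose substrate is not assigned here, was the only tested member with all knockout arrays above all wild-type arrays, at 55.7, 40.8, 38.5 and 58.9 in knockout and 24.0, 31.2, 22.6 and 28.0 in wild type (0.59, SE 0.21, adjusted p = 0.198, limma). In all, groups did not overlap for 6 of the 27 members (1 higher, 5 lower), against 8.26% of all genes.

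Markers of white adipocytes, cells that lie between muscle fibres, were read beside the carriers. Of 5 listed, Adipoq, Lep and Retn were measured, and their sum was 266 to 918 in knockout quadriceps and 633 to 1155 in wild-type quadriceps. With all arrays 0 of 3 passed. Without knockout 8, 2 of 3 were lower, against 21.1% of all genes, and the part of these cells in the carrier differences was not tested. The 6 myofibre markers summed to 46893 to 164377 in knockout and 49482 to 74318 in wild-type quadriceps, and 0 of 6 passed. The upper end in knockout came from 1 array. Ckm, for example, had a knockout median of 11612.5 and a highest value of 26604, against a wild-type median of 10787. The 4 endothelial markers summed to 465 to 652 in knockout quadriceps and 596 to 785 in wild-type quadriceps. Kdr read 79.5 ± 21.5 in knockout and 135 ± 43.7 in wild type, and Cdh5 142 ± 9.5 and 214 ± 71.9 (SD, n = 4 each). Tek read 161 ± 40.7 in knockout and 194 ± 30.8 in wild type. Pecam1 ran the other way, at 176 ± 67.8 in knockout and 155 ± 18.1 in wild type. Of the 4 endothelial markers, 0 passed with all arrays. Without knockout 8, 1 of 4 was lower, which is near the 21.1% of all genes lower there. The part of these cells in the carrier differences was not tested.

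In knockout liver, 4 carriers fell and 1 rose. Slc25a38, the glycine carrier needed for heme synthesis, Slc25a51, Slc25a44, which carries branched-chain amino acids into mitochondria, and Slc25a23 were lower, and the peroxisomal carrier Slc25a17, which moves coenzyme A and related cofactors, was higher. That was 4 of 24 tested members lower, against 5.25% of all genes, and 1 higher, against 4.87%. The members' median was 0.07, against 0.03 over all 7988 genes. Groups did not overlap for 7 members (3 higher, 4 lower), against 15.9% of all genes.

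Slc25a38 signals were 93.4, 94.7, 106 and 96.0 in knockout liver 5 to 8, against 133, 157, 151 and 142 in wild-type liver 1 to 4. The groups were far apart relative to their spread, with means of 97.5 ± 5.60 in knockout and 146 ± 10.5 in wild type (SD, n = 4 each). The difference of -0.51 (SE 0.11, adjusted p = 0.00803, limma) was past the threshold in 18 of 18 other settings. The setting with no scaling, which is among them, repeats the main fit in liver. In quadriceps this glycine carrier read 78.3, 86.5, 92.8 and 85.4 in knockout, against 119, 87.2, 113 and 109 in wild type, with groups that overlapped through wild type 2 (-0.27, SE 0.16, adjusted p = 0.401, limma).

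Slc25a51 signals were 576, 617, 431 and 468 in knockout liver, against 722, 860, 878 and 729 in wild-type liver. The groups did not overlap, and the means were 523 ± 87.6 in knockout and 797 ± 83 in wild type (SD, n = 4 each), a difference of -0.60 (SE 0.12, adjusted p = 0.00809, limma). Its 2 other probe sets differed by -0.44 and -0.33 in the same direction. The call was lost when all probe sets were averaged (-0.46, adjusted p = 0.084, limma) and with all 16 arrays in 1 fit (adjusted p = 0.111, limma).

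Slc25a44 signals were 126, 148, 142 and 139 in knockout liver, against 164, 202, 216 and 179 in wild type, groups that did not overlap (-0.41, SE 0.11, adjusted p = 0.0369, limma). Its other 2 probe sets gave -0.17 and -0.05, and the mean of all 3 gave -0.21 (adjusted p = 0.291, limma). The Slc25a44 call was lost without wild-type liver 2 (adjusted p = 0.103, limma), wild-type 3 (0.104), wild-type 4 (0.0529), knockout 5 (0.112), knockout 7 (0.0677) or knockout 8 (0.0763). Its quadriceps values were 90.6, 96.7, 97.6 and 142 in knockout, against 130, 138, 133 and 130 in wild type, where knockout 8 alone overlapped with wild type (-0.30, SE 0.17, adjusted p = 0.38, limma).

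Slc25a23 signals were 279, 277, 202 and 265 in knockout liver, against 432, 420, 313 and 311 in wild type. The groups did not overlap, with wild type 3 and 4 closer to the knockout arrays than wild type 1 and 2 (-0.50, SE 0.14, adjusted p = 0.0428, limma). The Slc25a23 call was lost without wild-type liver 1 (adjusted p = 0.11, limma), wild-type 2 (0.124), knockout 5 (0.0597), knockout 6 (0.0511), knockout 7 (0.113) or knockout 8 (0.075). Slc25a17 signals were 238, 242, 259 and 252 in knockout liver, against 175, 183, 207 and 172 in wild type, a rise with no overlap between the groups (0.40, SE 0.10, adjusted p = 0.0232, limma). The Slc25a17 call was lost without wild-type liver 1 (adjusted p = 0.0526, limma), wild-type 2 (0.0604), wild-type 4 (0.0534), knockout 7 (0.0609) or knockout 8 (0.0579). With its second probe set, which lay below the filter, averaged in, Slc25a17 differed by 0.20 (adjusted p = 0.408, limma). In quadriceps Slc25a17 read 33.5, 49.3, 43.4 and 61 in knockout, against 62.2, 64.1, 106 and 47.7 in wild type (-0.43, SE 0.22, adjusted p = 0.329, limma).

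The carriers nearest to the liver threshold beside Slc25a42 were Slc25a4 and Slc25a3. Slc25a4, the muscle-type ADP/ATP exchanger, read 102, 145, 113 and 146 in knockout liver, against 106, 68.5, 87.6 and 77.0 in wild type (0.50, SE 0.15, adjusted p = 0.0539, limma). Knockout 5 overlapped with wild type 1, and the difference passed without either of them (without wild type 1, 0.60, adjusted p = 0.0313; without knockout 5, 0.58, adjusted p = 0.0412; limma). Slc25a3 read 4219, 4052, 4795 and 4316 in knockout liver, against 3960, 3756, 3769 and 3340 in wild type, groups that did not overlap (0.23, SE 0.07, adjusted p = 0.0726, limma). Quantile normalization made it pass (0.30, adjusted p = 0.00604, limma).

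The other liver carriers did not pass. Slc25a5, the ADP/ATP exchanger of most tissues, differed by 0.08 (SE 0.08), and Slc25a47 by 0.10 (SE 0.11). Slc25a10 and Slc25a11 differed by 0.16 (SE 0.13) and 0.05 (SE 0.10), and the glutamate carrier Slc25a22 by 0.03 (SE 0.14). The iron and glutathione carriers lay between -0.18 and 0.13. Slc25a30, a relative of the uncoupling proteins, read 986, 351, 475 and 412 in knockout liver, against 486, 340, 375 and 246 in wild type, with knockout 5 far above the rest (0.52, SE 0.27, adjusted p = 0.279, limma). The 4 Slc25a30 probe sets above the filter gave 0.52 to 0.79. Slc25a36 read 50.0, 50.7, 70.9 and 51.7 in knockout liver, against 43.9, 43.7, 43.9 and 33.4 in wild type, without overlap (0.32, SE 0.15, adjusted p = 0.209, limma). Slc25a29 read 68.1, 55.7, 56.8 and 71.4 in knockout liver, against 104, 95.8, 95.6 and 55.1 in wild type, where wild type 4 alone lay among the knockout arrays (-0.37, SE 0.17, adjusted p = 0.212, limma), and it passed without that array (-0.54, adjusted p = 0.0292, limma). Its other probe sets, some of them below the filter, gave -1.15 to -0.04 in liver. With all averaged, Slc25a29 passed there too (-0.55, adjusted p = 0.0261, limma).

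Of the 4 endothelial markers listed, 4 were measured, and they summed to 408 to 497 in knockout liver and 317 to 400 in wild-type liver. Kdr passed the threshold as higher (0.49, SE 0.13, adjusted p = 0.0274, limma), against 4.87% of all genes, and Cdh5, Pecam1 and Tek did not. The 3 erythroid markers measured summed to 160.5 to 197 in knockout liver and 181 to 427.5 in wild-type liver. Alas2 made up most of that sum, at 154 ± 18 in knockout and 286 ± 142 in wild type (SD, n = 4 each). Hba-a1 and Slc4a1 lay below the filter signal. The 7 macrophage markers summed to 4229 to 6706 in knockout and 3799 to 5668 in wild type. The part of these cell types in the liver carrier differences was not tested.

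**Figure D3:**
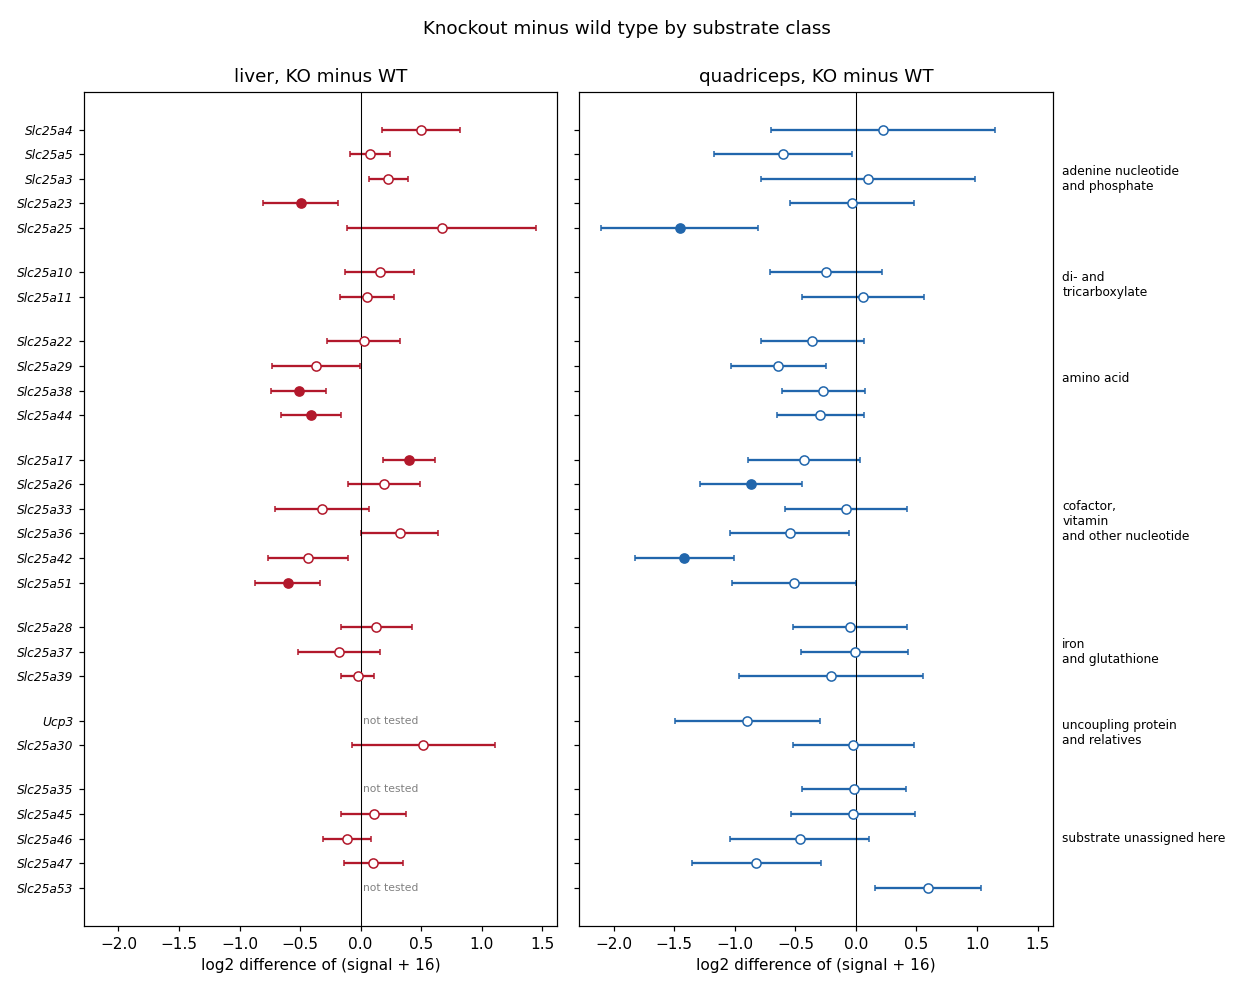
Difference, knockout minus wild type, in log2(signal + 16) for each tested carrier by substrate class, in liver (left) and quadriceps (right), with 95% intervals and filled points past the threshold. In liver Slc25a38, Slc25a51, Slc25a44 and Slc25a23 were lower and Slc25a17 higher, and in quadriceps Slc25a42, Slc25a25 and Slc25a26 were lower.

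The knockout effect was compared across tissues as the liver effect minus the quadriceps effect in 1 fit of the 16 arrays. Of 27 members tested, 2 were past the threshold as higher, against 1.17% of all 8987 genes, and 0 as lower, against 0.779%. Slc25a25 had the larger term, 2.13 (SE 0.53, adjusted p = 0.0393, limma), made of 0.67 in liver and -1.46 in quadriceps. Slc25a26 had a term of 1.06 (SE 0.25, adjusted p = 0.0276, limma), made of 0.19 and -0.87. Slc25a42, with -0.44 in liver and -1.42 in quadriceps, had a term of 0.98 that narrowly missed the threshold (SE 0.26, adjusted p = 0.0517, limma), and it passed without knockout liver 7 (adjusted p = 0.049, limma), wild-type quadriceps 4 (0.0448), knockout quadriceps 6 (0.046) or knockout quadriceps 8 (0.00841).

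The Slc25a25 term kept a size of 1.72 to 2.45 over 29 other settings and was past the threshold in 14 of them. It was 2.45 (adjusted p = 0.00416, limma) without knockout quadriceps 8. The call was lost without wild-type liver 2 (adjusted p = 0.0829, limma), wild-type liver 4 (0.0868), knockout liver 5 (0.0899), 7 (0.0656) or 8 (0.0818), any of the wild-type quadriceps arrays (0.0553 to 0.0866), knockout quadriceps 6 (0.075) or knockout quadriceps 7 (0.0613). It was also lost with a pseudocount of 1 (adjusted p = 0.084, limma), no filter (0.0609), quantile normalization (0.056) and no variance trend (0.0537). The Slc25a26 term passed in 19 of 29 settings. It was lost without wild-type liver 1 (adjusted p = 0.0522, limma), 3 (0.0551) or 4 (0.0592), knockout liver 7 (0.0653) or 8 (0.0549), wild-type quadriceps 1 (0.0551) or 3 (0.067), or knockout quadriceps 7 (just above the threshold). A pseudocount of 1 lost it too (adjusted p = 0.0571, limma). The second Slc25a26 probe set had differences of -0.34 in liver and -0.21 in quadriceps, and with the probe sets averaged the term was 0.47 (adjusted p = 0.207, limma).

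Without knockout quadriceps 8, 8 members had a higher liver effect: Slc25a25, Slc25a26, Slc25a42, Slc25a36, Slc25a17, Slc25a47, Slc25a46 and Ucp3, against 16.2% of all genes, and 0 had a lower one, against 2.4%. Ucp3 lay below the filter in liver, and Slc25a47 below it in knockout quadriceps, so their terms rest in part on signals too dim for the filter. With quantile normalization of these 15 arrays there were 8 again, with Slc25a3 and Slc25a4 in place of Slc25a46 and Ucp3, against 6.62% of all genes, and 0 lower, against 3.65%. All calls together split into 1455 higher and 216 lower with median scaling, 595 higher and 328 lower with quantile normalization, and 508 higher and 361 lower with trimmed-mean scaling of these arrays. With all 16 arrays and no scaling they split into 247 higher and 40 lower, against 105 higher and 70 lower with the scaling used here.

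The tissues differed in most carriers. In knockout, liver was above quadriceps for 12 members, against 38.9% of all genes, and below it for 9, against 29.6%. In wild type, liver was above quadriceps for 13 of 27 members, against 33.5% of all genes, and below it for 9, against 35.8%. The members below it included Ucp3, Slc25a35 and, in knockout alone, Slc25a53. These lay below the filter in liver and entered through quadriceps alone, so the filter favoured a lower liver value for them. In wild type, Slc25a25, Slc25a29, Slc25a46, Slc25a51 and Slc25a53 did not pass. With averaged probe sets, Slc25a51 passed there as higher in liver (0.72, adjusted p = 0.000672, limma). Slc25a46 then passed as lower (-0.43, adjusted p = 0.0407, limma), as it did with quantile normalization (-0.30, adjusted p = 0.0347, limma). The Slc25a51 probe sets disagree, with wild-type differences from -0.59 to 2.47. The all-gene split in the knockout was 3498 higher and 2658 lower as scaled here, 3004 and 3590 with quantile normalization, and 3585 and 1853 with no scaling, and the all-gene median was 0.11, -0.11 and 0.29 in the same order. The wild-type and knockout contrasts share the fit and its spread but no array.

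The largest wild-type tissue difference was that of Slc25a4, the muscle form of the ADP/ATP exchanger, whose signals in wild-type liver were 106, 68.5, 87.6 and 77.0, against the quadriceps values of 7483 to 11369 given above (-6.58, SE 0.28, adjusted p = 3.09e-15, limma). Its 4 probe sets gave differences of -6.74 to -2.92. Slc25a5, the other exchanger, ran the opposite way: it read 5327, 5186, 5678 and 4829 in knockout liver and 5374, 4799, 5364 and 4415 in wild-type liver, against 264, 591, 491 and 579 in knockout quadriceps and 653, 628, 1035 and 588 in wild-type quadriceps. No liver array overlapped with a quadriceps array, and its 8 probe sets gave wild-type differences of 2.41 to 2.82. With the brightest the difference was 3.47 (SE 0.22, adjusted p = 8.07e-12, limma) in knockout and 2.79 (SE 0.22, adjusted p = 3.55e-10, limma) in wild type.

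Slc25a47 and Slc25a10 were high in liver and dim in quadriceps. Slc25a47 read 5537, 4779, 4457 and 4401 in knockout liver and 4054, 4087, 5744 and 4081 in wild-type liver, against at most 63.8 on any quadriceps array (knockout 7.06, SE 0.20; wild type 6.13, SE 0.20). Since its knockout quadriceps mean of 21.2 lay below the filter signal, the size depends on the pseudocount, and it ran from 5.84 to 7.94 in knockout and 5.33 to 6.52 in wild type over the other settings. The dicarboxylate carrier Slc25a10 read 1382, 1415, 1099 and 1285 in knockout liver and 1260, 929, 1437 and 1057 in wild-type liver, against 37.7, 54.7, 23.0 and 56.6 in knockout quadriceps and 48.6, 47.6, 50.8 and 61.9 in wild-type quadriceps (knockout 4.51, SE 0.18; wild type 4.11, SE 0.18). Both were past the threshold in 27 of 27 other settings in knockout and 26 of 26 in wild type. Slc25a11, which carries oxoglutarate against malate, ran the other way, with means of 421 ± 43.4 in knockout liver and 404 ± 26.5 in wild-type liver, against 1196 ± 93.6 in knockout quadriceps and 1162 ± 217 in wild-type quadriceps (SD, n = 4 each).

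Ucp3 and Slc25a36 were also lower in liver. Ucp3 read 26.5, 13.1, 15.2 and 19.3 in knockout liver and 38.1, 17.3, 20.7 and 31.1 in wild-type liver, values near the filter signal, against the quadriceps values of 507 to 1656 given above (knockout -4.39, SE 0.23; wild type -4.98, SE 0.23). Since liver Ucp3 lay below the filter, it entered this test through quadriceps alone, as did Slc25a35 and Slc25a53, and its difference ran from -5.21 to -3.22 in knockout and -5.63 to -3.93 in wild type over the other settings. The pyrimidine nucleotide carrier Slc25a36 read 143, 249, 244 and 330 in knockout quadriceps and 350, 448, 280 and 328 in wild-type quadriceps, all above the liver values given above (knockout -1.80, SE 0.19; wild type -2.67, SE 0.19).

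**Figure D4:**
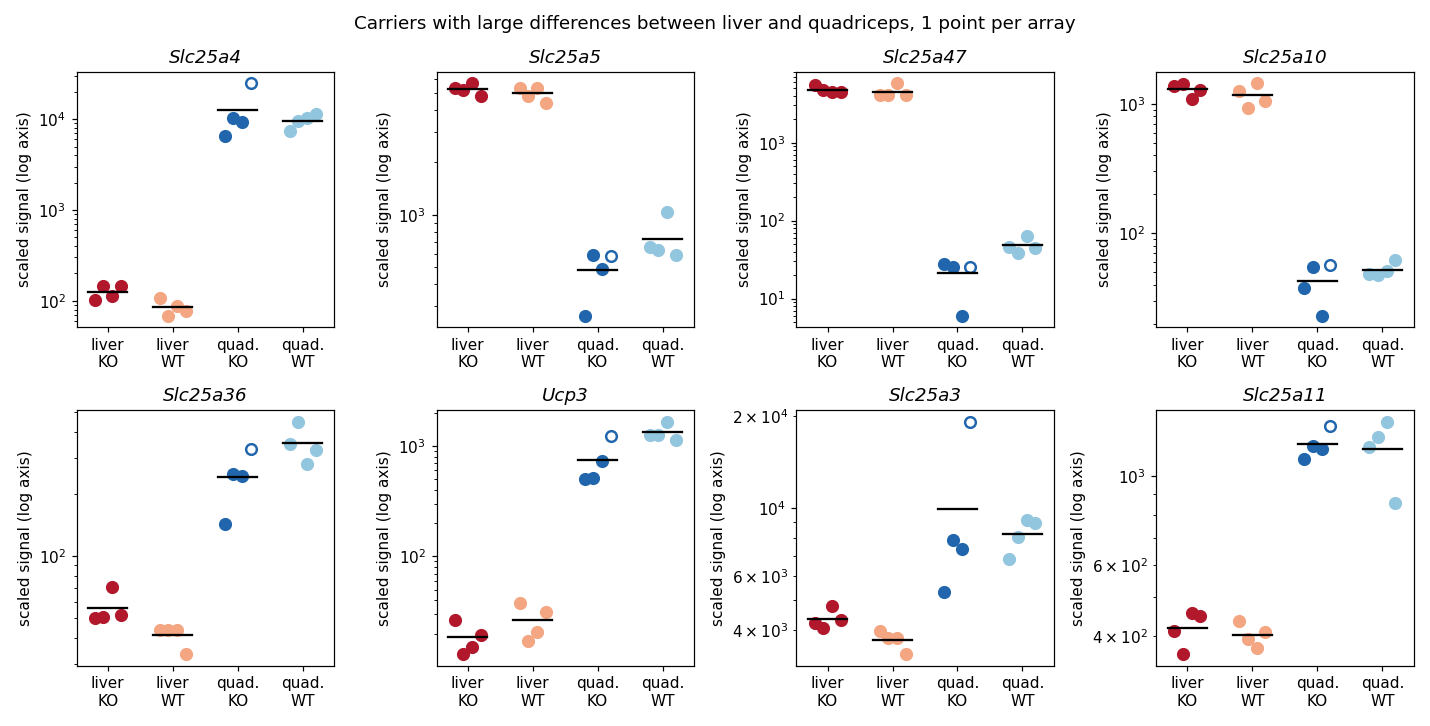
Signal per array (log axes) of the 6 carriers with the largest wild-type tissue differences and of Slc25a3 and Slc25a11, in liver and quadriceps with knockout (KO) left of wild type (WT), lines at group means and knockout quadriceps 8 as an open circle. Slc25a4 and Slc25a5, the ADP/ATP exchangers, ran in opposite directions between the tissues, with wild-type means of 84.8 in liver and 9677 in quadriceps for Slc25a4 and 4988 in liver and 726 in quadriceps for Slc25a5.

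By substrate, 3 of 4 amino acid carriers were higher in wild-type liver: Slc25a22 (2.01, SE 0.19), Slc25a44 (0.47, SE 0.14) and Slc25a38 (0.40, SE 0.13). The small differences of Slc25a38 and Slc25a44 did not pass with no scaling (adjusted p = 0.299 for Slc25a38 and 0.174 for Slc25a44, limma), and that of Slc25a38 did not pass with 1 median for all 16 arrays (adjusted p = 0.0694, limma). Among iron and glutathione carriers, Slc25a39 (2.0, SE 0.30) and Slc25a37 (0.50, SE 0.20) were higher in liver and Slc25a28 (-1.27, SE 0.18) lower. The Slc25a37 call was lost without wild-type liver 1 (adjusted p = 0.108, limma), 3 (0.057) or 4 (0.0549), or wild-type quadriceps 3 (0.123) or 4 (0.113), and with quantile normalization (0.0627), 1 median for all arrays (0.0967) or no scaling (0.166). In the coenzyme and nucleotide class, Slc25a17 (1.26, SE 0.17) and Slc25a42 (0.78, SE 0.18) were higher in liver, and Slc25a36, Slc25a26 (-1.22, SE 0.18) and Slc25a33 (-0.57, SE 0.22) lower. The Slc25a33 call was lost without wild-type liver 2 (adjusted p = 0.0616, limma) or 4 (0.0857), wild-type quadriceps 4 (0.0544) or knockout quadriceps 7 (0.0541).

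Carriers without an assigned substrate here included Slc25a45, at 259 ± 28.0 in knockout liver and 240 ± 34.5 in wild-type liver, against 33.2 ± 15.1 in knockout quadriceps and 33.0 ± 8.02 in wild-type quadriceps (SD, n = 4 each). Its liver level exceeded that of quadriceps in wild type by 2.39 (SE 0.18) and its knockout effects did not pass. Slc25a46, an outer membrane protein of mitochondrial dynamics, averaged 613 ± 25.9 in knockout liver, 667 ± 57.3 in wild-type liver, 546 ± 271 in knockout quadriceps and 710 ± 96.5 in wild-type quadriceps (SD, n = 4 each). Beside Ucp1, 4 carriers lay below the filter in both tissues. Slc25a2, an ornithine carrier, had group means of at most 23.4, Slc25a14 of at most 24.6, the ATP-magnesium/phosphate carrier Slc25a24 of at most 13.2, and Slc25a48 of at most 25.9, the last in wild-type liver.

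Slc25a25 was higher in liver in knockout, at 2.01 (SE 0.38, adjusted p = 7.83e-05, limma), and did not pass in wild type, at -0.12 (SE 0.38, adjusted p = 0.787, limma). The difference between these contrasts is the term of 2.13 given above. Its close relative Slc25a23 was higher in liver in both genotypes, at 2.15 (SE 0.21) in knockout and 2.62 (SE 0.21) in wild type. Slc25a26 differed by -0.16 (SE 0.18, adjusted p = 0.448, limma) in knockout, which did not pass, and by -1.22 in wild type, which did. Of the small knockout differences, that of Slc25a44 (0.35, SE 0.14, adjusted p = 0.0329, limma) was lost with quantile normalization (0.09, adjusted p = 0.56, limma) and without knockout liver 6 (0.078), 7 (0.0626) or 8 (0.0578), wild-type quadriceps 3 (0.1) or 4 (0.0972), or knockout quadriceps 6 (0.173). With no scaling, the knockout calls of Slc25a33 (adjusted p = 0.061, limma), Slc25a35 (0.1) and Slc25a53 (0.0989) as lower in liver were lost. Without knockout quadriceps 8, Slc25a37 (0.48, adjusted p = 0.017, limma) and Slc25a46 (0.48, adjusted p = 0.00275, limma) were higher in knockout liver too. The second Slc25a46 probe set ran the other way over all arrays, averaging 343 in knockout liver and 506 in knockout quadriceps.

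**Figure D5:**
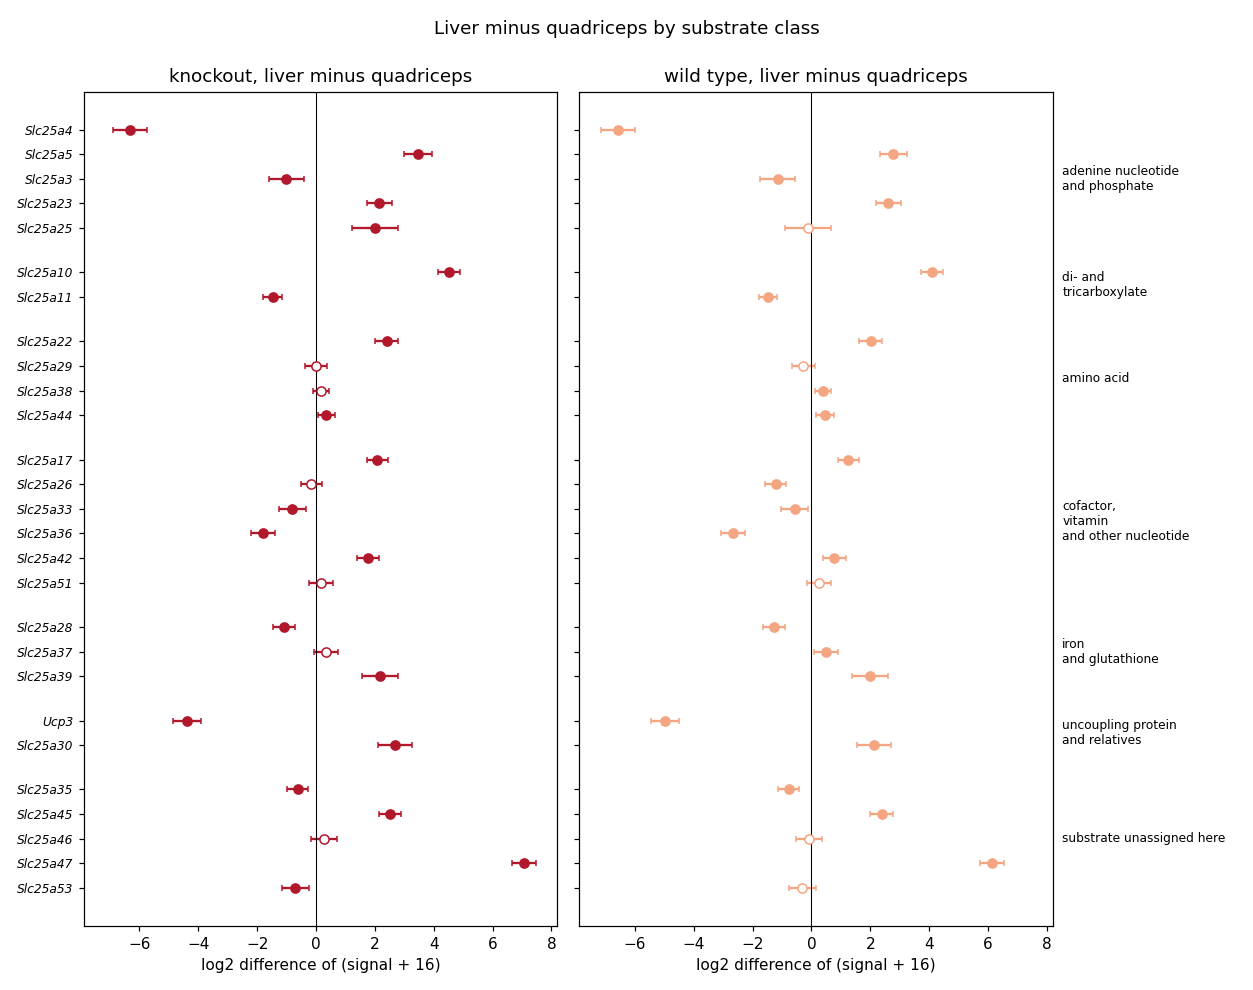
Difference, liver minus quadriceps, in log2(signal + 16) for the 27 tested carriers by substrate class, in knockout (left) and wild type (right), with 95% intervals and filled points past the threshold. Slc25a4 lay at -6.31 in knockout and -6.58 in wild type and Slc25a10 at 4.51 and 4.11, the point of Slc25a47 in knockout depends on a quadriceps signal below the filter, and Slc25a25 was filled in the knockout panel alone.

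Other genes of mitochondrial transport and its shuttles (pyruvate carriers, porins, sideroflexins, calcium uptake, import subunits and the shuttle enzymes) were counted beside the carriers, with 24 of 29 listed genes measured. In liver 4 of 22 tested rose, against 4.87% of all genes, and 2 fell, against 5.25%. Those that rose were Mdh2, the mitochondrial malate dehydrogenase (0.84, SE 0.10), Got1, the cytosolic aspartate transaminase (0.64, SE 0.10), Sfxn1, a mitochondrial serine transporter (0.47, SE 0.09), and Acly, the cytosolic ATP citrate lyase (0.44, SE 0.10). The sideroflexin Sfxn2 (-1.63, SE 0.12) and the glycerol phosphate shuttle enzyme Gpd2 (-0.88, SE 0.19) fell. Sfxn2 averaged 79.3 ± 8.62 in knockout liver and 278.5 ± 33.5 in wild-type liver (SD, n = 4 each). In quadriceps 0 of 23 passed in limma, and 2 had an unadjusted p under 0.05. Without knockout 8, Mdh1 (-0.53), Sfxn2 (-0.93) and Tomm70a (-0.59) were lower, 3 of 23 where 21.1% of all genes were lower, a share no higher than the background. Across tissues in wild type, 6 of 23 were higher in liver, against 33.5% of all genes, led by Sfxn1 (3.12), Sfxn2 (2.36) and the translocator protein Tspo (2.25), and 10 were lower, against 35.8%, among them the porins Vdac1 (-1.96), Vdac2 (-1.36) and Vdac3 (-2.03).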

How the data were processed

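RNA from liver and quadriceps was measured on 16 Affymetrix Mouse430A_2 arrays, 4 per group. The deposited intensity of each probe set, a signal on a linear scale, was made by the authors with GCOS, per the submitters' processing notes; the sources used here do not give its settings. Of 22690 probe sets, 64 were controls, 20380 had 1 gene symbol in the platform annotation, 691 several and 1555 none. Each of 12393 named genes was read from its brightest probe set over the 16 arrays, an annotation that can be old.

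Arrays of a tissue were scaled to a common median where their medians differed by over 1.5 times, which left liver as deposited. Genes above the 40th percentile of mean signal were fitted with limma 3.58.1 in R 4.3.3 (lmFit, eBayes with a variance trend) on log2(signal + 16), with Benjamini-Hochberg adjustment over all genes tested and a threshold of 0.05. Liver and quadriceps were fitted separately, and the tissue contrasts and the interaction over all 16 arrays. The number of arrays limits the precision. The fit was tested on simulated data. Figures were drawn with matplotlib 3.10.9 in Python 3.11.15.

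Genes named are the members and a list of other mitochondrial transport genes. Members, lists and markers were chosen with earlier results of these data known. Sample numbers were checked for pairing of liver with quadriceps: the correlation of deviations from group means was -0.0765 to 0.0558 over 8 same-numbered pairs, above 0.1 in 0, so the numbers were not used as pairs. Alternatives were the pseudocount, the filter, the scaling, the variance trend, averaging probe sets, 1 fit of all arrays, the scan day as a block and leaving out each array.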

Additional observations from a re-analysis of the deposited data

Results flagged for a closer look

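The knockout effect differed between the tissues for 2 carriers by the test of the difference itself in limma. The liver effect minus the quadriceps effect was 2.13 for Slc25a25 and 1.06 for Slc25a26.

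In 10 of 102 group values tested, 1 array lay far from the other 3 of its group, which chance gives in about 1 of 20 groups. In liver these were Slc25a36 in knockout 7, at 70.9 against 50.0 to 51.7, and in wild type Slc25a28 in array 1, at 215.7 against 149.5 to 151.7. Further ones in wild-type liver were Slc25a26 in array 2, at 73.3 against 56.3 to 57.8, Slc25a47 in array 3, at 5744 against 4054 to 4087, and in array 4 both Slc25a29, at 55.1 against 95.6 to 104, and Slc25a36, at 33.4 against 43.7 to 43.9. In knockout quadriceps, Slc25a47 stood at 6.03 in array 7 against 25.4 to 27.9, and Slc25a44 at 142 in array 8 against 90.6 to 97.6. In wild-type quadriceps, array 3 held Slc25a23 at 25.1 against 53.8 to 57.5, and Slc25a5 at 1035 against 588 to 653.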

How the results depend on the processing

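Over all results and settings, 3060 values kept their side of the threshold, 62 passed newly and 102 no longer passed. Of called values 0 changed sign, while some values without a call did, and the causes were not tested. In liver, 2 carriers were lower with no filter; 2 were higher with a filter at the 60th percentile, 2 with quantile normalization and 0 with probe sets averaged; and 1 fit of all 16 arrays called 319 genes, with 0 carriers higher and 1 lower. In quadriceps, no filter gave 46 genes and 1 carrier lower, no variance trend 45 and 1, 1 fit of all arrays 292 and 5, the scan day as a block 1791 and 10, and quantile normalization without knockout 8 gave 654 and 6. No scaling gave 139 genes. Trimmed-mean scaling, chosen after seeing the data, gave 1 carrier lower, and 640 genes without knockout 8. For the tissue difference in knockout effect, a pseudocount of 1 gave 95 genes and 0 carriers higher, one of 64 gave 286 genes, and no filter and no variance trend gave 1 carrier each. Quantile normalization gave 343 genes there, no scaling 287 and 4 carriers, quantile normalization without knockout quadriceps 8 gave 923 and 8, and trimmed-mean scaling gave 305 genes with that array and 869 without it.

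Leaving out 1 array at a time gave 581 to 749 genes in liver, with 0 to 2 carriers higher and 2 to 5 lower, and 33 to 1803 genes in quadriceps, with 0 higher and 1 to 10 lower. The highest counts in quadriceps came without knockout 8. The tissue difference in knockout effect gave 118 to 1671 genes, with 0 to 8 carriers higher and 0 lower. Between tissues, 11 to 14 carriers were higher and 9 to 10 lower in knockout, and 12 to 13 higher and 8 to 10 lower in wild type.

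With the sample number as a random replicate block (consensus correlation -0.0310), the tissue difference in knockout effect gave 168 genes and 2 carriers higher, the knockout tissue contrast 6112 genes and the wild-type contrast 6193. All 81 carrier results in these 3 comparisons kept their call, and 3 of 8 samples correlated best with their own number.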
